A study of Mus musculus with 4 samples.

Results

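The 8 genes described here each had a probe set that was at least 8-fold dimmer in high than in low switching subclones of a mouse hybridoma, though not all were near background there. They are Rps6ka6, Syce1, Fhit, Sertad4, Pgam2, Nxf3, Cyb561a3 and Zfp982. The 8 genes were chosen from earlier results of the same comparison, so their differences between the classes are a description and carry no test. They are 8 of 18193 named genes, and all probe sets whose platform symbol is one of these names were taken, 13 of the 45037 on the array. A probe set is a group of short probes for a transcript, and its value is an RMA intensity, given below as log2. A further probe set names Zfp982 together with Gm13212 and was not counted.

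The cells are subclones of the hybridoma 36-65, a fusion of a mouse B cell with a myeloma line that secretes antibody. Subclones H23 and H27 switched the class of their heavy chain spontaneously at high frequency in culture, and subclones L25 and L27 did so at low frequency. All 4 were grown in the same medium with 10% fetal calf serum, no other treatment or genetic change is named in the labels, and each gave 1 array of total RNA. Each subclone is a clonal line and the labels do not say whether those of a class arose separately, so differences between classes include whatever sets these clones apart. The 4 arrays had median log2 intensities from 5.25 to 5.30. With 2 arrays a class, precision is limited throughout. All 8 measured plasma cell markers, among them Sdc1, Prdm1 and Irf4, had class means from 8.47 to 14.46 in high and from 9.19 to 14.42 in low switching subclones. Of these 8 markers, 2 were lower in high switching subclones by limma, Xbp1 (-0.71, adjusted p = 0.0461) and Tnfrsf17 (-0.71, adjusted p = 0.0454), and 0 were higher, against 4.82% of all genes called in either direction. Of 6 B cell markers, Cd79b was higher (0.77, limma adjusted p = 0.0238), 0 were lower, and 3 lay below the median probe set on all arrays. Of 4 T cell and 3 fibroblast markers, 0 reached a mean of 7 in either class. Of 4 myeloid markers only the integrin gene Itgam did, at 6.76 in high and 8.14 in low switching subclones (means, difference -1.38, limma adjusted p = 0.0151). The summed intensity of the 4 was 271 and 294 in high and 436 and 431 in low switching subclones, and that of the other 3 without Itgam was 178 and 168 in high and 154 and 149 in low switching subclones. The Xbp1 and Tnfrsf17 calls lay close to the threshold, and how the marker calls hold without 1 array is not given here. The part of these marker differences in the results below was not tested.

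The 8 genes belong to different pathways. Rps6ka6 encodes a kinase of the RSK family, which acts below the ERK kinases. Syce1 is a central element protein of the synaptonemal complex that joins homologous chromosomes in meiosis, and Fhit is a hydrolase of diadenosine nucleotides whose human gene spans a common fragile site. Sertad4 belongs to the SERTA domain family, some members of which act on E2F-dependent transcription, and Zfp982 is a zinc finger protein. Nxf3 belongs to the nuclear RNA export factor family, Pgam2 is the muscle form of the glycolytic enzyme phosphoglycerate mutase, and Cyb561a3 is a lysosomal member of the cytochrome b561 family of iron reductases. Several of these genes are best known from germ cells or muscle and are not typical genes of antibody-secreting cells.

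Promoters are shown because the genes were chosen for a lower signal in the same subclones. Sequences were found for 7 of the 8 genes (13 start sites) in the RefSeq promoter table of build GRCm38.p6. The 250 bases before the first listed start are shown for 4 genes that span the range of CpG content, with each CG in capitals. The arrays do not show which start was used.
Sertad4, chr1:192855753-192856002, strand -: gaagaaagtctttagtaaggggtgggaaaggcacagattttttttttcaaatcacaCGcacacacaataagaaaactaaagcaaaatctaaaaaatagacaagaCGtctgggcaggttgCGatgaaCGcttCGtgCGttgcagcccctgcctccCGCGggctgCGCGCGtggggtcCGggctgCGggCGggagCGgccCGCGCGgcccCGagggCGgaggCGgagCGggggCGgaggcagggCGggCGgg
Syce1, chr7:140787855-140788104, strand -: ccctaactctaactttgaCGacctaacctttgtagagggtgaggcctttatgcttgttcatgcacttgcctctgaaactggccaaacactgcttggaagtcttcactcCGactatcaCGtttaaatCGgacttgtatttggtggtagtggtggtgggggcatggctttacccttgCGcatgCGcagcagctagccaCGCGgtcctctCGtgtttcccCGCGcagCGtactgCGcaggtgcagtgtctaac
Rps6ka6, chrX:111537960-111538209, strand -: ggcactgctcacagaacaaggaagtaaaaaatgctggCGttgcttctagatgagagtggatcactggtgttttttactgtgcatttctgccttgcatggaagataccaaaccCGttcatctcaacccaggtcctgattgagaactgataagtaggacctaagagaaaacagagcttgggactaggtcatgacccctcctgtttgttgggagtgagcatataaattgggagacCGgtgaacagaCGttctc
Pgam2, chr11:5803797-5804046, strand -: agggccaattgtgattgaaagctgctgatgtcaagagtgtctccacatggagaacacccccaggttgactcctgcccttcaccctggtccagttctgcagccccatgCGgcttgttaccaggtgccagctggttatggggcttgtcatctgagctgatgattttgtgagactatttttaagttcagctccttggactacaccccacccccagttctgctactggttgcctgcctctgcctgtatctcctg

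The first listed Sertad4 promoter held 25 CG dinucleotides, a number reached by 10.7% of the 32851 promoter windows of this length. The first listed Syce1 promoter held 13, that of Rps6ka6 held 4 and that of Pgam2 held 1, against a median of 6 over all promoters. The first listed promoters of Cyb561a3, Zfp982 and Fhit held 17, 11 and 9. The first listed promoters of the 7 genes therefore ranged from CG-poor to CG-rich. Later listed windows held 4 for Sertad4, 12 for Rps6ka6, 15 for Cyb561a3, 6 for Fhit, and 3 and 2 for Zfp982. The place of Sertad4 and Rps6ka6 in this range thus depends on the start. The letters TATAAA, read on both strands, occurred in the first listed window of 1 gene, Rps6ka6, and in 12.4% of all windows. The letters CCAAT on both strands occurred in those of Rps6ka6, Pgam2, Fhit, Cyb561a3 and Zfp982 and in 33.8% of all windows. GGGCGG on both strands occurred 4 times in that of Sertad4, once each in those of Fhit and Zfp982, and in 32.7% of all windows. Among the later listed windows, TATAAA occurred for Cyb561a3, CCAAT for Sertad4 and Zfp982, and GGGCGG for Rps6ka6, Fhit and Zfp982. The palindrome CACGTG was found in 0 of the 13 windows and in 6.02% of all windows.

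Rps6ka6 and Syce1 were near the bottom of the range in high switching subclones. The brighter Rps6ka6 probe set (1429759_at) read 3.71 and 3.90 in subclones H23 and H27, against 9.68 and 9.74 in subclones L25 and L27. Its mean was 3.80 ± 0.14 in high and 9.71 ± 0.04 in low switching subclones (SD, n = 2 each), a difference of -5.91. On the linear scale these were intensities of 13.1 and 14.9 in high and 822 and 856 in low switching subclones. The second Rps6ka6 probe set (1429760_at) read 3.73 and 3.91 in high switching subclones and 5.17 and 4.71 in low switching subclones. It lay below the median probe set on all 4 arrays and differed in the same direction, by -1.12. In bulk RNA, fewer cells with a transcript and less transcript per cell cannot be told apart. The only Syce1 probe set (1428685_at) read 4.22 and 3.94 in high and 9.72 and 9.94 in low switching subclones, a difference of -5.75. The subclones of a class stood close together for both genes, and the classes were 5.78 apart for Rps6ka6 and 5.50 apart for Syce1 from the highest high to the lowest low switching array.

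Fhit was measured by 1 probe set (1425893_a_at), which read 4.68 and 4.41 in high switching subclones and 9.11 and 9.22 in low switching subclones. Its mean was 4.54 ± 0.19 in high and 9.17 ± 0.07 in low switching subclones, and the difference was -4.62. Sertad4, also with 1 probe set (1454877_at), read 4.57 and 4.17 in high and 8.42 and 8.69 in low switching subclones, a difference of -4.18. Both genes lay below the median probe set on both high switching arrays, and the classes did not overlap. Nxf3 (1456035_at) read 5.29 and 5.16 in high and 8.97 and 9.17 in low switching subclones, a difference of -3.85. Its high switching values stood at the median probe set, at percentiles 50.2 and 47.9.

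Pgam2 differed between the low switching subclones as well as between the classes. Its probe set (1418373_at) read 5.89 and 6.34 in subclones H23 and H27, and 10.93 and 9.20 in subclones L25 and L27. L25 was thus 3.32-fold brighter than L27. The Pgam2 probe set was itself among the 2504 probe sets of like level (within 0.5 of its mean in low switching subclones). It made up the 0.0399% that differed as much between these subclones, and no other did. The median absolute difference of the 2504 was 0.12. The class means were 6.11 ± 0.31 in high and 10.06 ± 1.22 in low switching subclones, a difference of -3.95 that was -4.81 without L27 and -3.08 without L25. Both high switching values lay above the median probe set, so Pgam2 was low rather than at the bottom of the range there.

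**Figure D1:**
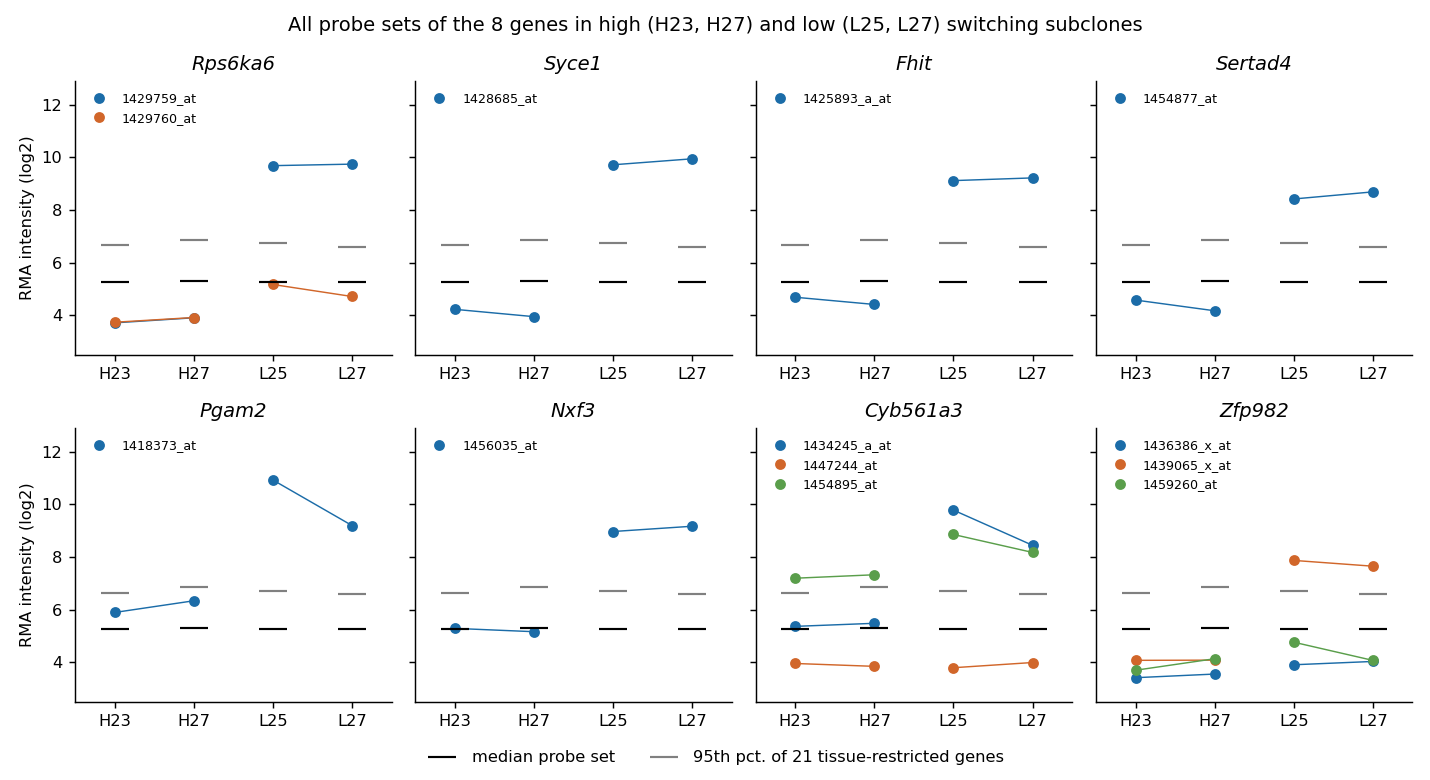
Log2 RMA intensity of the 13 probe sets of the 8 genes on the 4 arrays; each point is 1 array, lines join the subclones of a class, black ticks mark the median probe set of each array and grey ticks the 95th percentile of 21 genes restricted to other tissues. The brightest probe sets of Rps6ka6 and Syce1 are near 4 in H23 and H27 and near 10 in L25 and L27, while Cyb561a3 and Zfp982 have probe sets that hardly differ.

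Cyb561a3 did not hold to the description as a gene near background in high switching subclones. Its 3 probe sets gave 3 different pictures. The first (1434245_a_at) read 5.36 and 5.48 in high and 9.78 and 8.45 in low switching subclones, a difference of -3.69. The second (1454895_at), which had the highest mean over the 4 arrays, read 7.19 and 7.33 in high and 8.86 and 8.17 in low switching subclones, a difference of -1.26. It stood at percentiles 69.4 and 70.6 of the high switching arrays. The remaining probe set (1447244_at) read 3.95 and 3.84 in high and 3.79 and 3.99 in low switching subclones, where the classes overlapped at the bottom of the range. Both probe sets that were dimmer in high switching subclones also differed between L27 and L25, by -1.34 and -0.68. The size of the Cyb561a3 difference therefore depends on the probe set, and the transcripts that each detects were not analysed here.

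Zfp982 also rested on 1 of its probe sets. Probe set 1439065_x_at read 4.07 and 4.08 in high and 7.87 and 7.65 in low switching subclones, a difference of -3.68. The other probe sets (1436386_x_at and 1459260_at) had means of 3.48 and 3.92 in high and 3.97 and 4.42 in low switching subclones, and lay below the median probe set on all 4 arrays. On 1459260_at the classes overlapped. The probe set that names Zfp982 with Gm13212 averaged 4.88 ± 0.35 in high and 4.88 ± 0.29 in low switching subclones. The suffix _x_at marks probe sets whose probes may match several transcripts, and Zfp982 lies among related zinc finger genes, so the gene that gave this signal is uncertain.

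In all, both high switching arrays lay below both low switching arrays for 11 of the 13 probe sets, and for 22.2% of all 45037 probe sets. Of the 13, 8 were at least 8-fold lower in high switching subclones, as were 0.0755% of all probe sets. Since this contrast chose the genes, nothing follows from these counts. The median difference over the 8 genes, with the probe set of the highest mean for each, was -4.07, against 0.01 over all probe sets. No detection calls were analysed here, so a stand-in for background was taken from 21 genes restricted to other tissues, such as albumin, insulin and the sperm protamines. The 95th percentile of these genes lay between 6.58 and 6.85 on the 4 arrays. In low switching subclones 7 of the 8 genes had a probe set above this level on both arrays and below it on both high switching arrays, as did Cyb561a3 with its first probe set only. Measured against that level, Pgam2 was at least 9.94-fold lower in high switching subclones, Syce1 at least 8.45-fold, Rps6ka6 at least 7.79-fold, Fhit at least 5.33-fold, Cyb561a3 (1434245_a_at) at least 5.15-fold, Nxf3 at least 4.99-fold, Sertad4 at least 3.48-fold and Zfp982 at least 2.01-fold. The bounds of Pgam2 and Cyb561a3 rest on L25, and without it they were 5.45-fold and 3.24-fold. Without L27 they were 18.1-fold and 8.18-fold, so the bounds give no firm order of the genes. The measured differences above are larger, and below this level intensities are a poor guide to transcript amount.

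**Figure D2:**
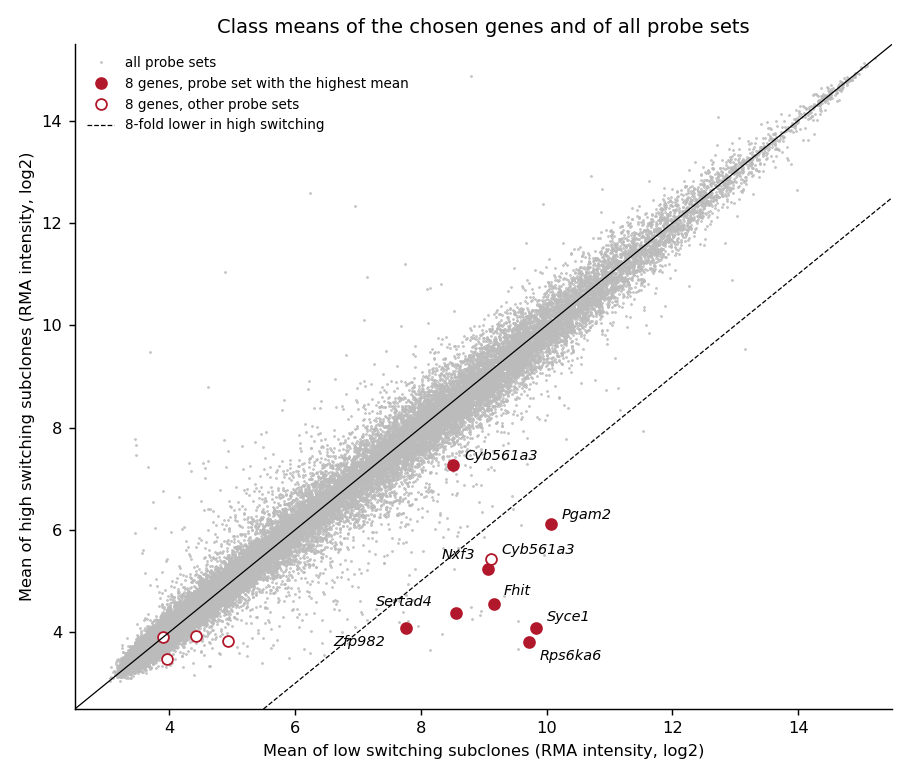
Mean log2 RMA intensity of the high switching subclones (vertical) against that of the low switching subclones (horizontal) for all 45037 probe sets (grey), with the probe set of the highest mean of each of the 8 genes in solid red and their other probe sets as open circles; the solid line marks equal means and the dashed line an 8-fold lower mean in high switching subclones. Of the 13 probe sets, 8 lie below the dashed line. The solid Cyb561a3 point (-1.26) and 4 open circles lie above it.

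A rule with fixed levels placed these genes among others of like behaviour. It asked for both arrays of a class to be at least 7, both arrays of the other class to be below their median probe set, and a difference of at least 3 between the class means. It held for 23 probe sets that were dim in high switching subclones, 0.0511% of all, and for 7 that were dim in low switching subclones. The 23 probe sets named 15 genes, among them Rps6ka6, Syce1, Fhit, Sertad4 and Zfp982, and the largest others were ceruloplasmin (Cp, -5.88) and the interferon-inducible gene Trim30a (-5.32). The 7 probe sets of the other direction named 3 genes, Cnn3 (calponin, 5.78), Mfsd1 (4.19) and Pfn2 (profilin, 3.99), all on chromosome 3, and the largest difference, 6.14, was on a probe set without a single gene name. Of the 15 genes dim in high switching subclones, 4 were also on chromosome 3, 4 were on chromosome 1 and 3 were on chromosome 7. Of the 18193 measured genes, 913 were on chromosome 3, 1057 on chromosome 1 and 1413 on chromosome 7. Probe sets without a single gene name were not placed, and the spread over chromosomes was not tested. Nxf3 missed the rule because H23 read 5.29, just above that array's median of 5.27, and Pgam2 because both high switching values lay above the median. Just inside the rule stood Tlr4, the lipopolysaccharide receptor, at 4.73 in high and 7.77 in low switching subclones (means).

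The genes most like each of the 8 in level and pattern were found by the Euclidean distance over the 4 log2 values, a description over 4 arrays. Cp was the nearest gene to Rps6ka6 (distance 0.33), Fhit (0.43, on another Cp probe set) and Sertad4 (0.50, on a further probe set). Rps6ka6 and Syce1 were within 0.55 of each other. The actin-binding gene Cttn (cortactin) and Trim30a were among the 3 nearest genes of both Fhit and Nxf3. Zfp982 was nearest to Pogk (0.25), which read 4.16 and 4.24 in high and 7.84 and 7.48 in low switching subclones. Cyb561a3, on the probe set of its highest mean, was nearest to Ptov1 (0.22), Clec2d (0.30) and Fkbp5 (0.35), whose class means lay between 7.16 and 7.44 in high and between 8.41 and 8.54 in low switching subclones. The gene nearest to Pgam2 was Wnt10a, which encodes a secreted signal of the Wnt family (distance 0.79, next gene 1.60). Wnt10a read 6.14 and 6.05 in high switching subclones and 10.35 and 8.82 in L25 and L27. Like Pgam2 it was brighter in L25, with L27 minus L25 at -1.54 for Wnt10a and -1.73 for Pgam2.

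The genes beside each of the 8 on its chromosome were tested next, to see whether whole stretches were lower. High minus low switching was tested with limma over all probe sets, of which 3.59% passed an adjusted p of 0.05 (2.1% lower and 1.5% higher). With 1 probe set for each gene, 4.82% of 18193 genes passed (2.78% lower and 2.04% higher). Of the 80 nearest measured neighbours, 5 on each side of each gene, 5 were lower and 0 higher, which is 6.25%, and 0 differed by 8-fold. The median difference of the neighbours was -0.03. Around Rps6ka6, Syce1, Fhit and Cyb561a3, 0 of 10 neighbours passed by limma. Many neighbours are dim in all subclones, since 29 of the 80 had a mean of at least 7 in a class, so a lower level of the others would be hard to see. Over the neighbours that reached 7, the median difference was -1.13 near Nxf3, -0.41 near Rps6ka6, -0.36 near Sertad4 and -0.31 near Pgam2. It was -0.08 near Zfp982, -0.02 near Syce1, -0.01 near Cyb561a3 and 0.28 near Fhit. These medians rest on 1 to 6 genes each and were not tested. Cylc1 and Tex16 on either side of Rps6ka6 had means from 3.45 to 3.56 in either class, and the Syce1 neighbours Cyp2e1 and Zfp941 differed by 0.04 and -0.07. The Fhit neighbours Cfap20dc and Ptprg differed by -0.23 and 0.10, and those of Cyb561a3, Tmem138 and Tkfc, by -0.15 and -0.20.

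Of the 10 neighbours of Zfp982, the gene on either side of it was lower and the other 8 did not pass, with a median difference of -0.07 over the 10. Zfp991 read 6.14 and 6.77 in high and 9.11 and 9.14 in low switching subclones, a difference of -2.67 ± 0.21 (SE, limma adjusted p = 0.00454). Zfp979 read 6.89 and 7.48 in high and 8.47 and 8.53 in low switching subclones, a difference of -1.31 ± 0.20 (limma adjusted p = 0.0282). Both encode zinc finger proteins, and probes may not separate members of this family. Gm13238 (-1.58) and Rex2 (-0.65) in the same stretch had limma adjusted p-values of 0.0563 and 0.079, and the other 6 neighbours differed by -0.08 to 0.19. The call of Zfp991 held without each array in turn, and that of Zfp979 ended without L25 (adjusted p = 0.13) and without L27 (0.108). Near Nxf3, the transcription elongation factor-like gene Tceal8 was lower (-1.69 ± 0.17, limma adjusted p = 0.0111), while Bex2 and 5730412P04Rik, the genes next to Nxf3, differed by 0.03 and -0.03. The high switching values of Zfp991 and Tceal8 lay below the background stand-in, which limits the precision of their folds. Traf3ip3, the fifth gene from Sertad4, was lower by limma (-1.01 ± 0.12, adjusted p = 0.0149), and its call ended without L25, H23 or H27 (adjusted p = 0.0526 to 0.0838). The Sertad4 neighbours Hhat and Gm15867, with means under 7 in both classes, differed by 0.08 and -0.14. Besides Traf3ip3, the Sertad4 neighbours with a mean of at least 7 were Traf5 (-0.17), Rcor3 (-0.35), Utp25 (-0.36) and A130010J15Rik (-0.40). None of these passed by limma (adjusted p = 0.109 to 0.736). Dbnl beside Pgam2 was lower by limma (-0.60 ± 0.11, adjusted p = 0.0411), a call that ended without any single array (adjusted p = 0.112 to 0.178), and Polm on its other side differed by -0.38 (limma adjusted p = 0.251). The hybridization controls spiked onto the arrays averaged 10.79 and 11.23 in high and 11.32 and 10.72 in low switching subclones, and with their level as a block 0 of the 5 neighbours passed by limma (adjusted p = 0.0539 to 0.117).

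**Figure D3:**
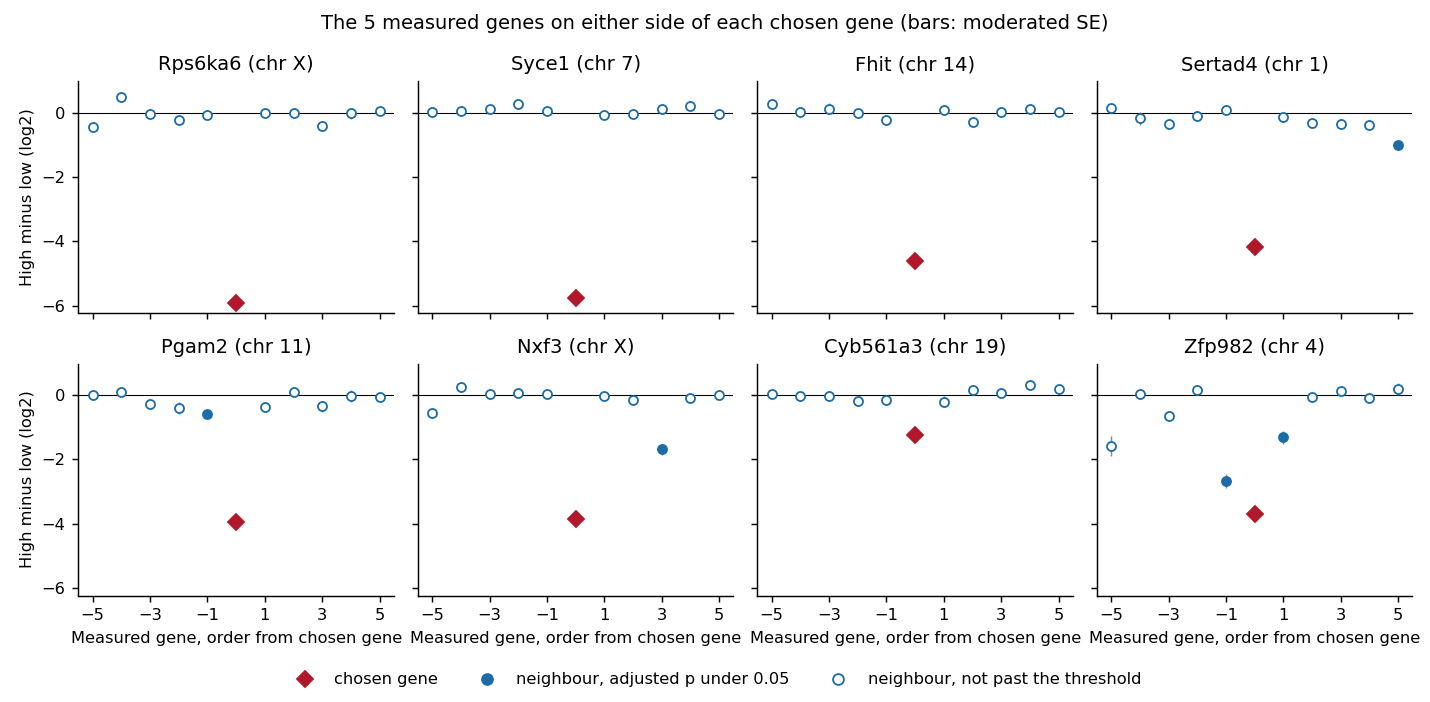
Difference of the class means (high minus low switching, log2) for the 5 measured genes on each side of each of the 8 genes, in chromosome order, with moderated SE bars; filled circles passed an adjusted p of 0.05 and red diamonds are the chosen genes on the probe set of the highest mean. The 5 filled circles are Zfp991 (-2.67) and Zfp979 (-1.31) beside Zfp982, and 1 gene near each of Nxf3, Sertad4 and Pgam2. The open circles include Gm13238 near Zfp982 (-1.58), Gprasp1 near Nxf3 (-0.57), and Sh3bgrl (0.49) and Hmgn5 (-0.44) near Rps6ka6.

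Relatives and partners of the 8 genes were then examined in 10 lists. Of 129 measured genes, 3 were higher and 5 lower by limma, which is 6.20%, near the 4.82% of all genes. With the hybridization controls as a block only Wwox passed (limma adjusted p = 0.0214), and the other 7 had adjusted p-values from 0.0532 to 0.156. In the RSK and ERK list 1 of 13 genes was lower and 0 higher. This was Rps6ka3, the X-linked kinase RSK2, with 8.39 and 8.12 in high and 8.92 and 9.10 in low switching subclones (-0.76 ± 0.14, limma adjusted p = 0.0469). Its other 2 probe sets differed by -0.81 and -0.35 without passing (limma adjusted p = 0.0656 and 0.38), and the call ended without any single array. Rps6ka1 and Rps6ka2 were not analysed here.

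Of 18 synaptonemal complex and meiotic recombination genes, limma called 0 at the adjusted threshold and 1 at an unadjusted p under 0.05, which 22.9% of all genes and 30.2% of the 129 relatives passed. Of these 18, 13 lay below the median probe set on all 4 arrays. Sycp1 and Sycp3, which form the transverse filaments and the lateral elements of the complex, had means of 3.59 and 3.53 in high and 3.59 and 3.61 in low switching subclones, and Syce2, the partner of Syce1 in the central element, had 5.19 in high and 4.99 in low switching subclones. The low switching subclones thus had a bright Syce1 signal while these partners stayed dim.

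Of 7 genes for histidine triad proteins and dinucleotide hydrolases, the relatives of Fhit, limma called 0 at the adjusted threshold and 4 at an unadjusted p under 0.05 (22.9% of all genes). Hint1 had means of 14.05 in H23 and H27 and 13.98 in L25 and L27, and Hint2 differed by -0.36 (limma adjusted p = 0.141). Among 7 large genes at common fragile sites, 1 was higher and 0 lower. Wwox, an oxidoreductase that like Fhit spans a fragile site in humans, read 10.52 and 10.88 in high and 8.35 and 7.86 in low switching subclones, a difference of 2.60 ± 0.20 (limma adjusted p = 0.00431) in the direction opposite to Fhit. The classes did not overlap, and the call held without each array in turn (limma adjusted p = 0.0107 to 0.0167). The other 3 Wwox probe sets, with means under 5.2 in both classes, differed by -0.07, 0.51 and 0.28 without passing.

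Of 12 SERTA domain proteins and E2F partners, Rb1, the retinoblastoma repressor of E2F factors, was higher and 0 were lower. Its brighter probe set differed by 1.26 ± 0.23 (limma adjusted p = 0.0431), the other by -0.60 (adjusted p = 0.0679), and the call ended without any single array. Sertad1, Sertad2 and Sertad3 differed by -0.09, 0.30 and -0.16, and did not pass (limma adjusted p = 0.788, 0.265 and 0.611). Of 19 NXF family and mRNA export genes, limma called 0 at the adjusted threshold and 6 at an unadjusted p under 0.05, which 22.9% of all genes passed. Nxf1, the general mRNA export receptor, had means of 10.39 in H23 and H27 and 10.06 in L25 and L27 (limma adjusted p = 0.168), and its cofactor Nxt1 had 10.25 in high and 10.43 in low switching subclones. Nxf2, an X-linked member like Nxf3, read 4.43 and 4.46 in high and 4.98 and 4.98 in low switching subclones and missed the threshold (-0.54, limma adjusted p = 0.0517), and Nxf7 differed by -0.05.

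Of 18 glycolytic enzymes, Eno3, the muscle form of enolase, was lower and 0 were higher. Eno3 read 10.05 and 10.08 in high and 11.14 and 10.97 in low switching subclones, a difference of -0.99 ± 0.11 (limma adjusted p = 0.0151). Its call held without L27 (adjusted p = 0.0479) and ended without L25, H23 or H27 (limma adjusted p = 0.0539 to 0.0846). Pgam1, the general form of the mutase, averaged 12.98 ± 0.12 in high and 12.56 ± 0.12 in low switching subclones (difference 0.42, limma adjusted p = 0.141). The mitochondrial phosphatase Pgam5 differed by -0.56 (adjusted p = 0.0942) and Bpgm by 0.38 (adjusted p = 0.331, limma). Of 14 muscle enzymes and contractile genes, 1 was lower and 0 higher by limma, the troponin gene Tnnt3 (-1.06 ± 0.20, adjusted p = 0.0473), with means of 4.67 in H23 and H27 and 5.73 in L25 and L27. That call held without L27 (limma adjusted p = 0.0358) and ended without each other array, and 10 of the 14 lay below the median probe set on all arrays. All 4 Tnnt3 values lay below the background stand-in, so no fold is drawn from them.

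Of 12 members of the cytochrome b561 family and other iron genes, 1 was lower and 1 higher. Frrs1, a ferric reductase related to the b561 proteins, read 5.14 and 5.21 in high and 6.88 and 6.60 in low switching subclones (-1.57 ± 0.13, limma adjusted p = 0.0061). Both high switching values lay below the background stand-in and the low switching values near it, so the size of this difference is uncertain. The call held without each array in turn, while a second, dim probe set of Frrs1 differed by 0.20. The endosomal ferrireductase Steap3 was higher on all 3 probe sets (0.61, 0.63 and 0.67), with means of 7.54 in H23 and H27 and 6.93 in L25 and L27 on the brightest (limma adjusted p = 0.0455), and its call ended without any single array. Cyb561 differed by 0.87, Cyb561d2 by -0.15 and Cybrd1 by 0.39, none of which passed (limma adjusted p = 0.136, 0.803 and 0.156). Tfrc in the same list did not pass on its brightest probe set (-0.64, limma adjusted p = 0.0724), but 2 of its 3 probe sets passed. Of 9 zinc finger genes near Zfp982 and corepressors, Zfp979 was lower, as above, and 0 were higher by the brightest probe set. Dnmt1 in this list differed by 0.54 on its brightest probe set without passing (limma adjusted p = 0.157), but 2 of its 3 probe sets passed. The direction and stability of the passing Dnmt1 and Tfrc probe sets are not given here, so nothing is drawn from them. The corepressor Trim28 had means of 12.06 in H23 and H27 and 12.29 in L25 and L27 (limma adjusted p = 0.323).

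**Figure D4:**
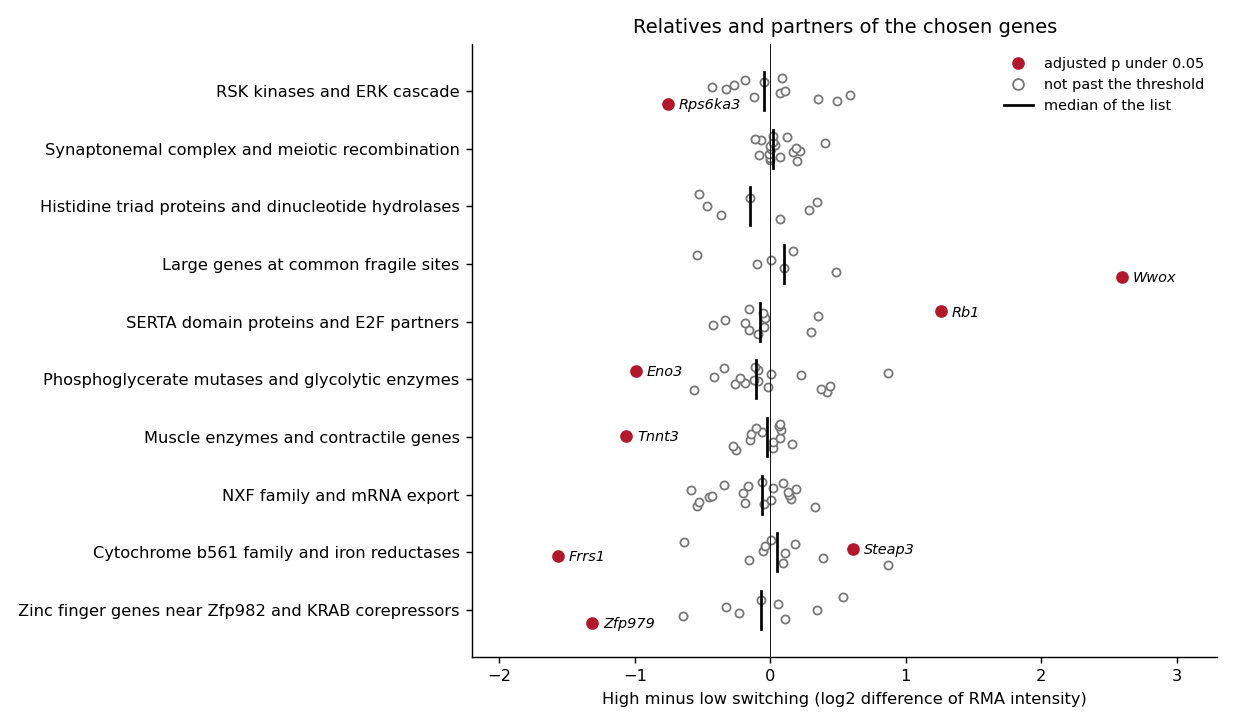
Difference of the class means (high minus low switching, log2) for 129 relatives and partners of the 8 genes in 10 lists; each circle is a gene, red circles passed an adjusted p of 0.05 by limma and are named, and black bars mark the list medians. Wwox is at 2.60 and Frrs1 at -1.57, and list medians lie between -0.15 and 0.10.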

How the data were processed

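Total RNA from 4 hybridoma subclones was biotin-labelled, and 1 Affymetrix array was run per subclone, per the labels. The authors deposited linear intensities. RMA is named in the submitters' processing notes, with no version given; it removes background, equalizes the arrays and combines the probes of a set, and it compresses differences among dim probe sets. The tests had been planned for values on a log2 scale, and log2 of each intensity was therefore taken.

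The array holds 45101 probe sets, from which 64 controls were dropped. The platform annotation gave 1 symbol for 34945, several for 932 and none for 9160, and 34741 of the first matched the RefSeq gene table of GRCm38.p6. That table served for names and the order of genes, since no build is named for the authors' annotation.

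High minus low switching was fitted with limma 3.58.1 (lmFit, eBayes, two-sided) in R 4.3.3 over 45037 probe sets, with Benjamini-Hochberg adjustment and a threshold of 0.05. For relatives and neighbours, the probe set with the highest mean stood for its gene. P-values set the difference of the class means against the spread between subclones within a class, moderated over all probe sets. They cover these 4 subclones and do not speak for others. The genes, lists, levels and alternatives were chosen with earlier results of these data known. Named genes were all probe sets of the 8 genes, the 3 most alike genes of each, listed paralogs, listed genes past the threshold, adjacent genes, and the largest of the fixed-level rule. Tlr4, Traf3ip3, Traf5, Rcor3, Utp25, A130010J15Rik, Tceal8, Gm13238, Rex2, Gprasp1, Sh3bgrl, Hmgn5, Itgam, Cd79b, Xbp1, Tnfrsf17, Nxf2, Tfrc and Dnmt1 were chosen after their values were seen.

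On simulated data for this comparison (45037 probe sets), the fit recovered 0.2% of probe sets changed by 0.5 on the log2 scale, 41.6% of those changed by 1, 95% of those changed by 2 and 99.8% of those changed by 4. The changed probe sets all had a mean of at least 7 and the noise was independent, so these rates do not cover dimmer probe sets. Tables and figures were made with Python 3.11.15, pandas 2.3.3, numpy 2.4.6 and matplotlib 3.10.9.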

Additional observations from a re-analysis of the deposited data

How the results depend on the processing

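The 8 genes were chosen by this contrast on these same arrays, so its sign could hardly change. The differences of the 8 genes stayed negative in all 9 alternatives run for each (3 normalizations, 4 arrays left out, a pseudocount, and the mean over probe sets). Their median, -4.07, was -3.54 with log2(value + 16), -3.90 when all probe sets of a gene were averaged, and between -4.31 and -4.07 without 1 array. The lower bounds of their folds without each array were added after seeing the data. With that average, Rps6ka6 became -3.51 and Zfp982 -1.56. The fixed-level rule found 20 to 30 probe sets dim in high and 5 to 10 dim in low switching subclones under its alternatives. Calls by limma were less stable. The 674 higher and 944 lower probe sets became 112 to 253 and 196 to 329 without 1 array, and 58 and 94 when the hybridization control level entered as a block. Among the relatives, the 3 higher and 5 lower genes became 1 to 2 and 1 to 3 without 1 array, and 1 and 0 with that block, where only Wwox passed. With probe sets of a mean of at least 6, 3 relatives were lower. The block and the left-out arrays reduce the degrees of freedom. With the block, Zfp991 had an adjusted p of 0.0539 and Tceal8 of 0.0926. No paired analysis was possible because the replicate numbers only name the subclones.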
